A study of Mus musculus with 7 samples.

Results

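The genes described are 9 of the 23337 in the tables: the Ly6 surface antigen genes Ly6a, Ly6c1, Ly6c2, Ly6e and Ly6i, the S100 genes S100a8 and S100a9, the serum amyloid gene Saa3 and the whey acidic protein gene Wfdc21, which the tables list under its older name 1100001G20Rik. They were chosen from measured values of these same libraries, so their levels and fold changes are given as a description, without p-values. Of the 9, 8 passed the filter on low values (a mean of at least 1 TPM, transcripts per 1000000, over the 7 libraries) and S100a9 did not. The libraries are RNA from mouse bone marrow-derived macrophages, which were grown from marrow of 6 to 8 week-old animals labelled male, with M-CSF at 25 ng/ml for 7 days. WT M0 (2 libraries) is wild type without further treatment, and WT LPS (2 libraries) is wild type given LPS, the bacterial lipopolysaccharide, at 10 ng/ml for 6 hours. KO M0 (1 library) and KO LPS (2 libraries) are the same pair of conditions in Tgm2 KO cells, which lack transglutaminase 2, a protein cross-linking enzyme. The labels give neither the kind of Tgm2 allele nor whether replicates came from separate animals, so p-values measure only the spread between these libraries.

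Ly6 proteins are small cell-surface proteins held by a lipid anchor, and several of their genes lie side by side on mouse chromosome 15 and respond to interferon. The Ly6C antigen, made from Ly6c1 and Ly6c2, marks inflammatory monocytes, and Ly6A (Sca-1) is used to mark blood stem cells. S100A8 and S100A9 form calprotectin, a metal-binding alarm protein of neutrophils and monocytes. Serum amyloid A3 is the acute-phase protein that macrophages themselves make, and acute-phase genes are switched on by NF-kappaB, C/EBP and STAT3 downstream of bacterial products and IL-6.

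Tgm2 itself measured 433 and 368 TPM for WT M0, 50.7 for KO M0, 233 and 199 for WT LPS and 19.4 and 19.2 for KO LPS, so every KO library lay below every WT library. The 12 macrophage markers, Lyz2, Csf1r and Adgre1 (F4/80) among them, were all present and summed to 40238 to 55005 TPM in every library. The median absolute log2 difference of WT M0 replicate 1 was 0.221 from its replicate and 0.226 from KO M0. The replicates of WT LPS differed by 0.196 and those of KO LPS by 0.197, which is close to that. WT M0 replicate 2 and KO M0 were nearer to each other, at 0.0959. Both WT LPS libraries held Xist, the RNA of the inactive X chromosome, at 47.2 and 55.4 TPM, against at most 0.00535 elsewhere, and their Y-linked Eif2s3y was at 32.8 and 37.2 TPM against 66.1 to 78.3 in the others. This goes against the label male for those libraries. A difference between them and KO LPS or WT M0, and a difference between the genotypes in the change with LPS, cannot be told apart from whatever else sets them apart. Xist itself rose by 5.70 in WT LPS against WT M0 (SE 0.21, limma adjusted p = 3.03e-08). KO LPS against KO M0 compares none of these libraries. Sequencing depth is unknown, since TPM carries no read count. In bulk RNA, fewer cells of a type and less RNA per cell cannot be told apart.

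Upstream sequence was at hand in the RefSeq table (build GRCm38.p6) for 5 of the 9 genes, Ly6c1, Ly6c2, S100a8, S100a9 and Saa3. The stretches for Ly6c1, Ly6c2 and Saa3 are shown as examples. After LPS, the KO libraries lay below the WT libraries for Ly6c2 and above them for Saa3, and overlapped with them for Ly6c1. Each runs 5′ to 3′ on the minus strand towards the gene. Capitals mark matches to 6 motifs searched on both strands: GAAANNGAAA (interferon-stimulated response element), GGGANNNNCC (kappaB), TTGCNNAA (C/EBP), TTCNNNGAA (GAS, the STAT site), TGANTCA (AP-1) and TATAAA, the TATA box, which can overlap.
Ly6c1, chr15:75048921-75049087: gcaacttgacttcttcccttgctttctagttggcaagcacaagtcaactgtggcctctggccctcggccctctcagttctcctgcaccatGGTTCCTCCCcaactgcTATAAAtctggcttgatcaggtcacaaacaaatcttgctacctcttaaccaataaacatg
Ly6c2, chr15:75112067-75112221: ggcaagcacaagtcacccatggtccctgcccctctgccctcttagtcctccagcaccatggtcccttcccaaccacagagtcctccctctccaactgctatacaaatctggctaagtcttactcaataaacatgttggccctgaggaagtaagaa
Saa3, chr7:46715701-46715926: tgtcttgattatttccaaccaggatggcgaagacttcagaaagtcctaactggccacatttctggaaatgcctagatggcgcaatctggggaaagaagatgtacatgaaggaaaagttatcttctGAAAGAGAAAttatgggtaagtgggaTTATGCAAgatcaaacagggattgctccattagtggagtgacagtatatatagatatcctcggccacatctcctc
The Ly6c1 and Ly6c2 stretches lie upstream of the annotated gene, and the Saa3 stretch lies upstream of its GENCODE starts but inside the longer RefSeq model. In the 250 bases before the start used by the table, Ly6c1 held a kappaB match at bases 160 to 151 before the start and TATAAA at 143 to 138. Ly6c2 held no match to any of the 6 motifs in the same window. Of the 210 bases that could be aligned between it and Ly6c1, 81.4% were identical. The same measure, which leaves out gaps, gave 62.8% to 75.4% for the other pairs of these 5 genes, so it is high for unlike genes too. Saa3 held GAAANNGAAA at 125 to 116 bases before the start and a C/EBP match at 99 to 92. S100a8 held TATAAA at 30 to 25 and S100a9 a C/EBP match at 236 to 229 bases before the start. Over all 27025 promoters of that length in the table, GAAANNGAAA was found in 3.05%, GGGANNNNCC in 17.4%, TTGCNNAA in 9.55%, TTCNNNGAA in 7.14%, TGANTCA in 6.85% and TATAAA in 13%. These matches describe letters only.

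In wild-type macrophages, LPS raised Saa3 to the third most abundant RNA of the whole library and brought Ly6c2, Ly6i and Wfdc21 from near or at 0 to between 15.2 and 273 TPM. S100a8, at 7.29 and 7.33 TPM in WT M0, and Ly6a, at 30.8 and 41.1 TPM, rose with them, while Ly6e, already abundant, rose least. The comparison of WT LPS with WT M0 is limma's, on log2(TPM + 1), a scale that understates the change of low genes. Of the 8 genes tested, 8 were past the threshold (an adjusted p under 0.05) and higher, a direction in which 15.0% of all 11096 genes were called, with 29.6% called lower and 44.6% in all. Their median log2 fold change was 4.55, beside -0.21 for all genes tested. In KO LPS against KO M0, 7 of the 8 were past the threshold and higher, with 13.8% of all genes called higher, 24.3% lower and 38.1% in all. The medians there were 4.80 for the 8 genes and -0.24 for all genes. Since the genes were chosen from these contrasts, nothing is read from the counts. Genes with a mean under 1 TPM in M0 passed the filter only through their LPS values, so a rise with LPS was built in. This holds for Ly6c1, Ly6c2, Ly6i and Wfdc21, and for Saa1, Orm1, Serpina3g, Ptx3, Wfdc18, Slamf1, Il6 and Gfi1 among the listed genes.

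**Figure D1:**
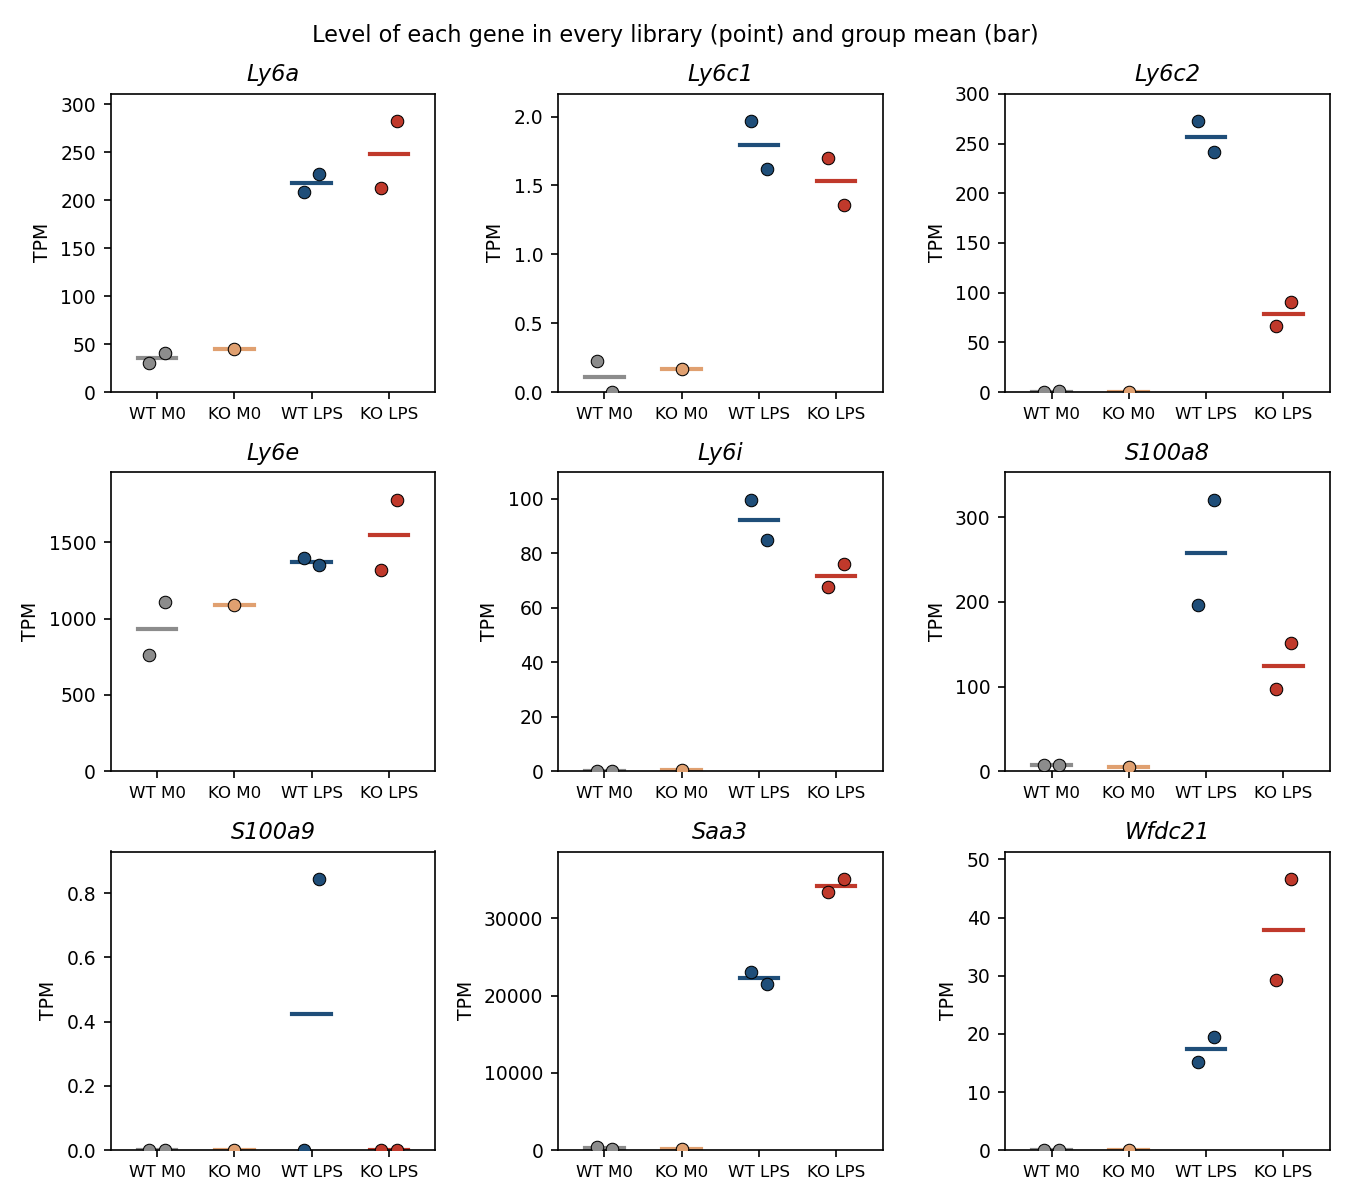
TPM of each of the 9 genes on a linear axis from 0, by group (WT M0, KO M0, WT LPS, KO LPS). Points are libraries and horizontal bars group means: Ly6c2 and S100a8 are lower in both KO LPS libraries than in both WT LPS libraries, and Saa3 and Wfdc21 higher.

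Ly6c2, the main gene behind the monocyte Ly6C antigen, measured 0 and 1.13 TPM for WT M0, 0.178 for KO M0, 273 and 241 for WT LPS and 66.3 and 90.4 for KO LPS. Both KO LPS libraries lay far below both WT LPS libraries, without overlap, and all M0 libraries were near 0. The LPS means were 257 ± 22.8 TPM in wild type and 78.3 ± 17.1 in the knockout (SD, n = 2 each), a 3.28-fold lower mean in the knockout. On the log2 scale the difference KO LPS minus WT LPS was -1.72 (SE 0.31). Ly6c2 ranked 607 and 668 among all genes by TPM in WT LPS against 2322 and 1775 in KO LPS. On the log2(TPM + 1) scale its change with LPS was 7.46 (SE 0.31) in wild type, against 6.06 (SE 0.38) in the knockout, and the difference between those changes was -1.41 (SE 0.49).

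Ly6c1, its neighbour and the second Ly6C gene, stayed low. It measured 0.226 and 0 TPM for WT M0, 0.165 for KO M0, 1.97 and 1.62 for WT LPS and 1.70 and 1.36 for KO LPS. All 4 LPS libraries lay above all 3 M0 libraries, and the LPS libraries of the 2 genotypes overlapped. Its log2 change with LPS was 1.33 (SE 0.24) in wild type and 1.12 (SE 0.29) in the knockout, and its KO LPS minus WT LPS difference was -0.14 (SE 0.24). The gene passed the filter narrowly, with a mean of 1.01 TPM over the 7 libraries. Ly6c1 and Ly6c2 share sequence: 31.7% of the 50-base windows of the longest Ly6c1 transcript also occur in Ly6c2, and 32.6% of those of Ly6c2 in Ly6c1. How the quantification divided reads from such windows is not given in the sources used here, so the split between both genes is uncertain.

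Ly6i, a Ly6 gene of myeloid and other marrow cells, measured 0.198 and 0.129 TPM for WT M0, 0.309 for KO M0, 99.6 and 84.9 for WT LPS and 67.4 and 76.1 for KO LPS. It was near 0 without LPS, and both KO LPS libraries lay below both WT LPS libraries by a small margin. The LPS means were 92.2 ± 10.4 and 71.7 ± 6.11 TPM (SD, n = 2 each), and the log2 difference was -0.36 (SE 0.19), which did not pass the threshold. The mean rose 564-fold with LPS in wild type and 232-fold in the knockout, from M0 values of 0.164 and 0.309 TPM. These folds rest on values near 0, so their gap is not read as a difference in the response. On the log2(TPM + 1) scale the changes were 6.32 (SE 0.19) and 5.79 (SE 0.23).

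Ly6a, which encodes Sca-1, measured 30.8 and 41.1 TPM for WT M0, 45.1 for KO M0, 209 and 227 for WT LPS and 213 and 283 for KO LPS. The LPS libraries all lay above the M0 libraries, and those of the 2 genotypes overlapped. The mean was 6.07-fold higher with LPS in wild type and 5.50-fold in the knockout, and the KO LPS minus WT LPS difference was 0.17 on the log2 scale (SE 0.19). Ly6e, an interferon-induced gene with a broad range of tissues, measured 761 and 1109 TPM for WT M0, 1092 for KO M0, 1395 and 1352 for WT LPS and 1322 and 1780 for KO LPS. It was the most abundant Ly6 gene in every library, ranking 51 to 78 among all genes in the LPS libraries and 123 to 199 in M0. The mean was 1.47-fold higher with LPS in wild type, where the change was 0.58 (SE 0.21) and past the threshold. In the knockout it was 1.42-fold higher, with a change of 0.49 (SE 0.26) that was not, and the difference between both changes was -0.09 (SE 0.33). The Ly6e call in wild type was lost when WT M0 replicate 1 or either WT LPS library was left out.

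**Figure D2:**
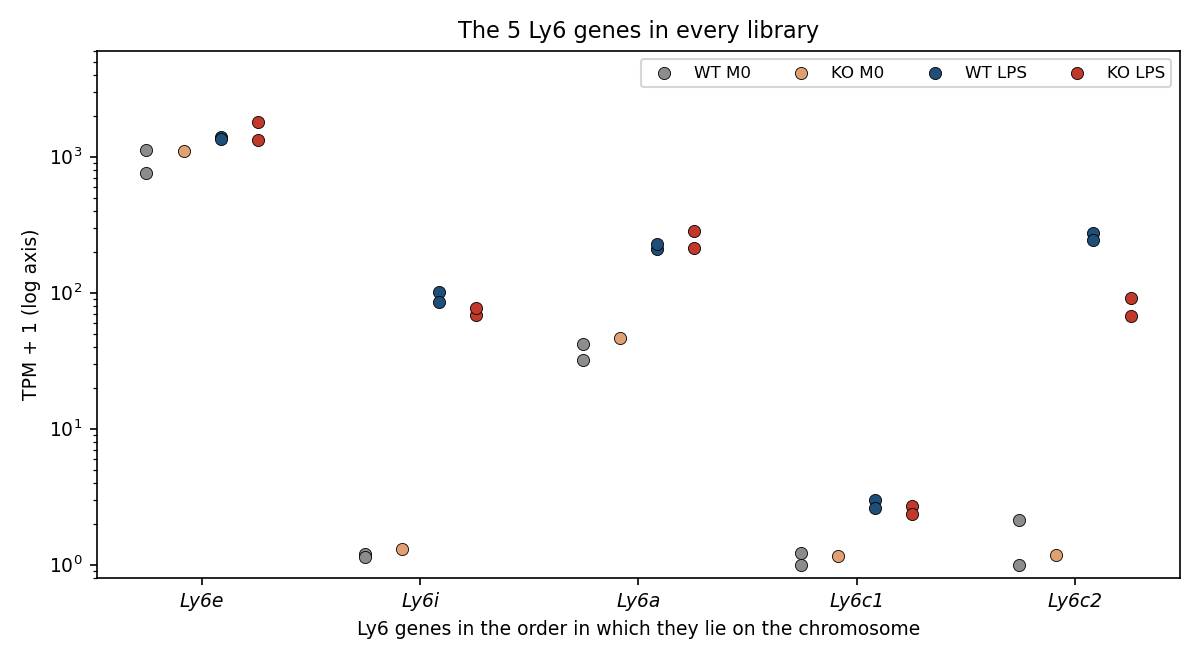
TPM + 1 on a log axis for the 5 Ly6 genes in chromosome order, with a point for each library and a colour for each group. Ly6e is high in all 7 libraries, Ly6i and Ly6c2 are near the bottom of the axis without LPS, and only Ly6c2 and Ly6i show KO LPS points entirely below the WT LPS points.

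The 5 genes lie on chromosome 15 (GRCm38.p6, RefSeq) in the order Ly6e (74955025 to 74959904), Ly6i (74979534 to 74983434), Ly6a (74994877 to 74998031), Ly6c1 (75044018 to 75048920) and Ly6c2 (75108161 to 75112066). All are protein-coding, and a long noncoding RNA model, Gm28068, overlaps Ly6a and Ly6i. Levels did not follow that order: in WT LPS the mean fell from Ly6e (1373 TPM) through Ly6c2 (257), Ly6a (218) and Ly6i (92.2) to Ly6c1 (1.80). In KO LPS the order was Ly6e (1551), Ly6a (248), Ly6c2 (78.3), Ly6i (71.7) and Ly6c1 (1.53), where the libraries of Ly6c2 and Ly6i overlap. Ly6g, Ly6g2 and Ly6a2, which RefSeq places in the same 268 kb cluster, were not analysed here. Of 34 other genes of the Ly6/uPAR family, 24 were at 0 in all 7 libraries and 2 were tested. Cd59a, which encodes a complement inhibitor, fell with LPS in both genotypes, with log2 changes of -2.20 in wild type (SE 0.25, limma adjusted p = 6.07e-05) and -1.25 in the knockout (SE 0.31, adjusted p = 0.00976). It was higher in KO LPS (6.04 and 6.12 TPM) than in WT LPS (1.49 and 3.25), by 1.12 (SE 0.25, limma adjusted p = 0.0247). That call was lost without WT LPS replicate 1, where the difference was 0.74, and without either WT M0 or either KO LPS library, with adjusted p from 0.0535 to 0.122. Plaur, the urokinase receptor gene, was at 113 to 240 TPM in every library and did not pass the threshold in any of these 3 comparisons.

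S100a8 measured 7.29 and 7.33 TPM for WT M0, 5.01 for KO M0, 196 and 321 for WT LPS and 96.9 and 152 for KO LPS. Both KO LPS libraries lay below both WT LPS libraries, with 152 and 196 TPM as the nearest values, and the M0 library of the knockout lay below both of wild type. The LPS means were 259 ± 88.2 and 124 ± 38.7 TPM (SD, n = 2 each), so the knockout mean was 2.08-fold lower, a log2 difference of -1.04 (SE 0.26). The mean rose 35.4-fold with LPS in wild type and 24.8-fold in the knockout. S100a9, whose product pairs with S100A8, was listed at 0 in 6 libraries and at 0.845 TPM in WT LPS replicate 2, so it was not tested. Whether these zeros stand for absent RNA or for a failed estimate is not known, since the quantifier is not given in the labels and S100a8 was well detected. The genes are neighbours on chromosome 3, S100a8 at 90669071 to 90670034 and S100a9 at 90692630 to 90695721, and their transcripts shared no 50-base window.

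Of 14 other S100 genes, 6 were tested. With LPS 5 fell and 1 rose in wild type, where 29.6% of all genes were called lower and 15.0% higher. In the knockout 2 fell and none rose, where 24.3% were called lower and 13.8% higher. The wild-type changes follow. S100a4 fell by 1.87 (SE 0.30, limma adjusted p = 0.000614), S100a6 fell by 1.42 (SE 0.23, adjusted p = 0.000705), S100a10 fell by 1.12 (SE 0.17, adjusted p = 0.000367) and S100a1 fell by 1.17 (SE 0.20, adjusted p = 0.000772) on the log2 scale. S100a11 rose by 0.52, a call that held in 11 of 15 alternative settings. The median gene fell by 0.21, and with median-ratio scaling, which removes that shift, 4 fell and 1 rose. The 2 that fell in the knockout were S100a1 and S100a10, and under median-ratio scaling 1 fell and 1 rose there. None of the 6 passed the threshold between KO LPS and WT LPS.

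Saa3 measured 362 and 116 TPM for WT M0, 149 for KO M0, 23132 and 21499 for WT LPS and 33379 and 35158 for KO LPS. Every LPS library lay far above every M0 library, and both KO LPS libraries lay above both WT LPS libraries. Saa3 made up 2.31% and 2.15% of all TPM in the WT LPS libraries, where it ranked 3rd, and 3.34% and 3.52% in the KO LPS libraries, where it ranked 2nd. The LPS means were 22316 ± 1154 TPM in wild type and 34269 ± 1258 in the knockout (SD, n = 2 each), a ratio of 1.54. The log2 difference of 0.62 (SE 0.39) did not pass the threshold, and its SE contains the spread of all groups, WT M0 included, where the libraries differed more than 3-fold. With only the 4 LPS libraries fitted, the same 0.62 had an SE of 0.20 and still did not pass. The change with LPS was 6.76 (SE 0.39) in wild type and 7.84 (SE 0.48) in the knockout, and the difference between them was 1.08 (SE 0.62). That difference was 0.26 without WT M0 replicate 1 and 1.90, past the threshold, without WT M0 replicate 2. The M0 difference, KO minus WT, changed from -0.46 to 0.36 without WT M0 replicate 1 and to -1.28 without WT M0 replicate 2. Saa3 lies on chromosome 7 at 46711998 to 46719615, where a noncoding model, Gm31882, overlaps it. Of the 3 other serum amyloid genes, only Saa1, a liver acute-phase gene, was tested. It was at 0 in all M0 libraries, 4.31 and 8.44 TPM for WT LPS and 3.29 and 1.46 for KO LPS, and the KO LPS minus WT LPS difference was -1.12 (SE 0.33, limma adjusted p = 0.0750).

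**Figure D3:**
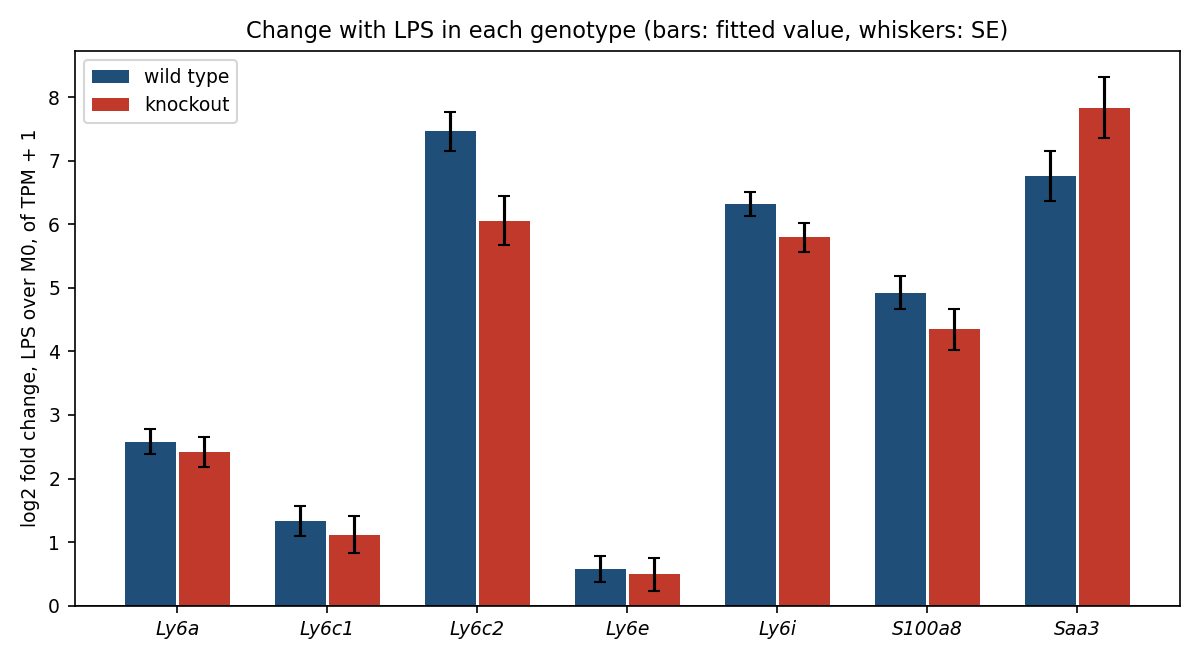
Fitted log2 fold change of TPM + 1 with LPS for 7 genes, in wild type (WT LPS over WT M0) and knockout (KO LPS over KO M0), with SE as whiskers; Wfdc21, at 0 in M0, is left out. Ly6c2 (7.46 and 6.06) and Saa3 (6.76 and 7.84) have the tallest bars, and the order of the genotypes is opposite for these.

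Wfdc21 encodes a small protein of the whey acidic protein (WAP) group, a fold found in protease inhibitors. It was at 0 in all 3 M0 libraries, 15.2 and 19.5 TPM for WT LPS and 29.2 and 46.7 for KO LPS. It was seen with LPS alone, and both KO LPS libraries lay above both WT LPS libraries. The LPS means were 17.3 ± 2.98 and 37.9 ± 12.4 TPM (SD, n = 2 each), a 2.19-fold higher mean in the knockout and a log2 difference of 1.06 (SE 0.25). No fold with LPS is given, because M0 is listed at 0. The gene lies on chromosome 11 at 83746940 to 83752646.

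Of the 19 other WAP genes, 14 were at 0 in all libraries and 3 were tested, and all 3 rose with LPS in both genotypes. In wild type the Wfdc17 rise of 0.90 (SE 0.24, limma adjusted p = 0.0120) was not past the threshold without WT LPS replicate 2 (0.77, adjusted p = 0.0807) or WT M0 replicate 2 (0.68, adjusted p = 0.103). Wfdc18, at 0 to 0.402 TPM in M0, passed the filter on low values only through its LPS values, so its rise in both genotypes was built in. In wild type that rise was 0.82 (SE 0.22), and 0.72 without WT LPS replicate 2 or 0.79 without WT M0 replicate 1. Slpi, the secretory leukocyte protease inhibitor, measured 18.0 and 10.2 TPM for WT M0, 12.7 for KO M0, 876 and 899 for WT LPS and 416 and 404 for KO LPS. It was lower in KO LPS than in WT LPS, as were Ly6c2 and S100a8, with a log2 difference of -1.11 (SE 0.22, limma adjusted p = 0.0134). The Slpi call was lost when KO LPS replicate 2 or either WT LPS library was left out, with differences from -1.13 to -1.09 and adjusted p from 0.0596 to 0.0847. Wfdc17 was at 347 to 470 TPM in M0, 689 and 822 for WT LPS and 1157 and 1923 for KO LPS. It was higher in KO LPS by 0.99 (SE 0.24, limma adjusted p = 0.0352), a call lost under median-ratio and quantile scaling and without either WT M0 or WT LPS library or KO LPS replicate 2, with adjusted p from 0.0508 to 0.213. Wfdc18 was at 1.27 and 1.59 TPM in WT LPS against 3.27 and 3.13 in KO LPS (0.79, SE 0.22, adjusted p = 0.0585). So the tested WAP genes did not share a direction between KO LPS and WT LPS: 1 was higher, 1 lower and 1 did not pass.

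Between KO LPS and WT LPS, the comparison that asks how LPS-treated cells differ with and without Tgm2, the 9 genes split. Ly6c2 and S100a8 were lower in the knockout, Wfdc21 was higher, and these 3 were past the threshold. The genes were chosen from measured values of these libraries, so these calls and their fate under other settings are description only. Saa3 (higher) and Ly6i (lower) did not pass. Their KO LPS and WT LPS libraries do not overlap, but the share of all genes separated in this way was not counted. Nothing is read from that separation. Ly6a, Ly6c1 and Ly6e overlapped between genotypes. Across all 11096 genes 7.16% were called, 4.59% higher and 2.58% lower in the knockout. The median log2 difference was 0.01 for the 8 genes and 0.03 for all. Scaling by median ratio kept all 3 calls, and quantile scaling lost S100a8. A pseudocount of 0.1 lost Ly6c2 and Wfdc21, testing without the filter on low values lost all 3, and fitting the 4 LPS libraries alone lost S100a8.

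The calls of these 3 genes rested on few libraries. Ly6c2 kept its call in 6 of the 7 fits that left out 1 library, with differences from -1.94 to -1.49, and lost it without KO LPS replicate 1 (-1.49). The S100a8 difference was -0.72 with KO LPS replicate 1 left out and -0.69 with WT LPS replicate 2 left out, both short of the threshold, and the call was also lost without either WT M0 library at the same -1.04. Leaving out KO LPS replicate 2 gave a Wfdc21 difference of 0.73, and leaving out WT LPS replicate 1 or 2 gave 0.89 or 1.22. Those 3 fits, and the fits without either WT M0 library at 1.06, did not pass. No difference of these 3 genes changed sign.

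**Figure D4:**
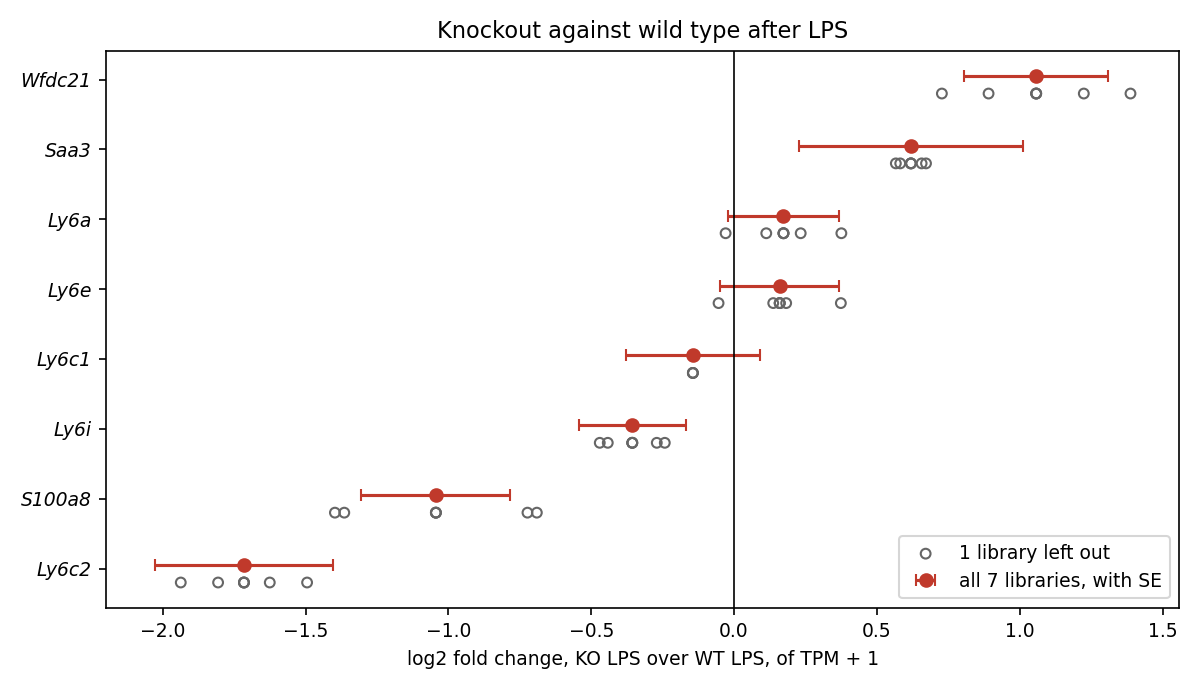
Log2 fold change of TPM + 1, KO LPS over WT LPS, for the 8 genes that passed the filter: red points with SE use all 7 libraries, and open circles are fits with 1 library left out. Circles of Ly6c2, S100a8 and Ly6i stay left of 0 and those of Wfdc21 and Saa3 right of it, while those of Ly6a and Ly6e fall on both sides.

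None of the 8 genes was past the threshold between KO M0 and WT M0, where 0.00901% of all genes were called (1 gene, Tgm2) and 154 genes had an unadjusted limma p under 0.05. KO M0 is a single library, which the fit assumes to vary like the other groups, and the absence of a call does not show that levels were alike. S100a8 differed by -0.47 (SE 0.32) and Ly6i by 0.17 (SE 0.23), and for both the KO M0 library lay outside the WT M0 pair. The test of whether the LPS change differs between genotypes passed for none of the 8 either, with 1.37% of all genes called and 1160 at an unadjusted p under 0.05. The genes' differences there ran from -1.41 for Ly6c2 to 1.08 for Saa3, and the values for S100a8, Ly6i and Wfdc21 were -0.58 (SE 0.41), -0.53 (SE 0.30) and 1.06 (SE 0.40). So the lower Ly6c2 and S100a8 in KO LPS are described as levels after LPS. Their difference in the response was tested and did not pass. With a single KO M0 library, that does not show that the responses were alike.

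Of 26 other acute-phase genes, 13 were tested. With LPS 10 rose and none fell in wild type, where 15.0% of all genes were called higher. In the knockout 9 rose and none fell, where 13.8% were called higher. Saa1, Orm1, Serpina3g and Ptx3 passed the filter on low values only through their LPS values, so a rise was built in for them. Between KO LPS and WT LPS, 5 of the 13 passed as higher and none as lower, where 4.59% of all genes were called higher, with a median of 0.12 beside 0.03 for all genes. Lcn2, lipocalin 2, which withholds iron from bacteria, was at 1.17 to 1.79 TPM in M0, 545 and 643 for WT LPS and 1594 and 1870 for KO LPS. Its difference of 1.54 (SE 0.17, limma adjusted p = 0.00052) passed in all 15 alternative settings. Ptx3, a soluble pattern receptor, was at 54.0 and 48.1 TPM in WT LPS against 91.4 and 102 in KO LPS (0.91, SE 0.18, limma adjusted p = 0.0134). C3, the central complement component, was at 553 and 571 TPM in WT LPS against 867 and 869 in KO LPS (0.63, SE 0.14, limma adjusted p = 0.0244). Cfb, complement factor B, was at 892 and 792 TPM in WT LPS against 1301 and 1365 in KO LPS (0.66, SE 0.16, limma adjusted p = 0.0334). Serpina3g, a serine protease inhibitor gene named because it completes the 5, differed by 1.24 (SE 0.31, limma adjusted p = 0.0399). Ptx3 passed in 10 of 15 settings, C3 in 10, Cfb in 8 and Serpina3g in 4 of 14. Without KO LPS replicate 1, KO LPS replicate 2 or WT LPS replicate 2 the group count fell from 5 to 1, and without WT LPS replicate 1 to 3. Under median-ratio scaling it was 3. Hp, haptoglobin, was lower in value in the knockout, at 1376 and 1481 TPM in WT LPS against 1015 and 1101 in KO LPS (-0.43, SE 0.17, limma adjusted p = 0.186).

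**Figure D5:**
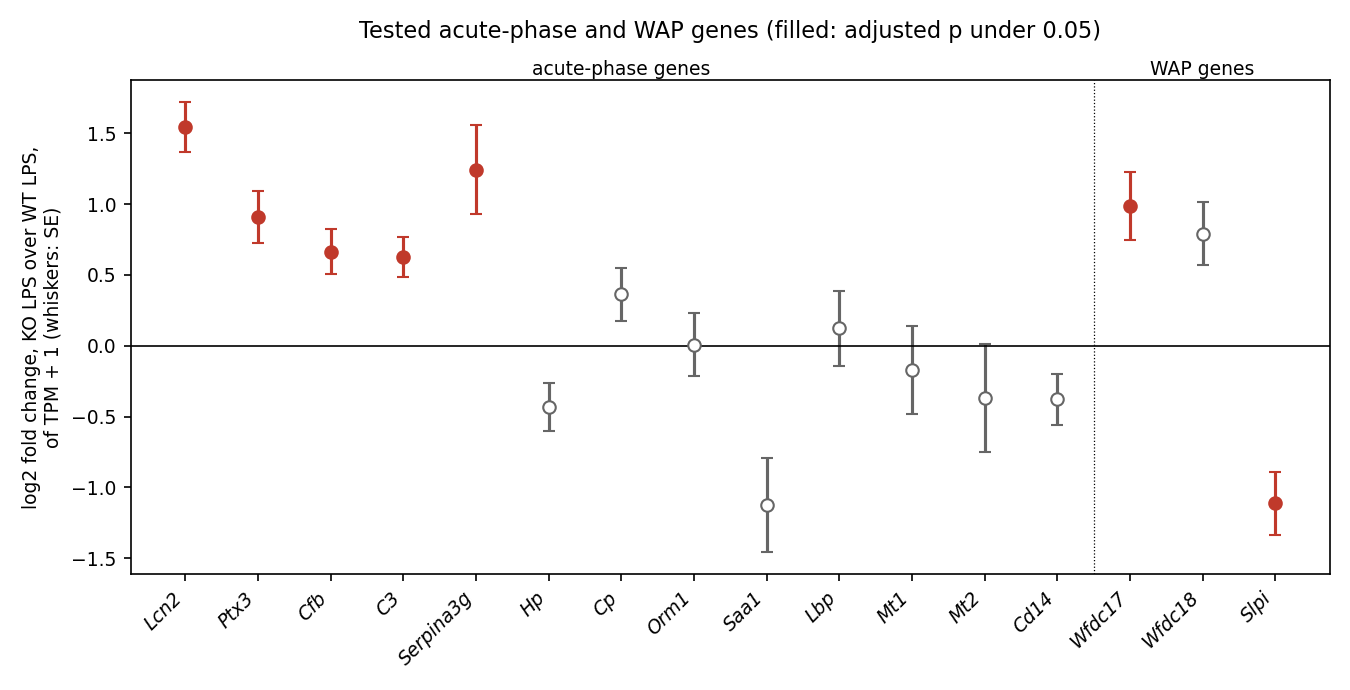
Log2 fold change of TPM + 1, KO LPS over WT LPS, with SE, for the 13 tested acute-phase genes and the 3 tested WAP genes. Filled red points are those with an adjusted p under 0.05: 5 acute-phase genes and Wfdc17 lie above 0 and Slpi below it.

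Of 13 receptor genes for S100A8/A9 and serum amyloid A, 11 were tested, and 3 passed between KO LPS and WT LPS, 1 higher and 2 lower, where 7.16% of all genes were called. With LPS 4 rose and 2 fell in wild type, and 3 rose and 5 fell in the knockout, while median-ratio scaling gave 6 and 1, and 3 and 4. Unscaled, 15.0% of all genes were called higher and 29.6% lower in wild type, and 13.8% and 24.3% in the knockout. The formyl peptide receptor gene Fpr2, whose product binds serum amyloid A, was at 19.9 to 28.7 TPM in M0 and rose to 1056 and 1229 for WT LPS and 720 and 1087 for KO LPS. Fpr1 rose likewise, by 5.54 in wild type (SE 0.15, limma adjusted p = 5.30e-09) and 5.18 in the knockout (SE 0.18, adjusted p = 5.73e-08). Cd36, a scavenger receptor gene, was at 493 and 541 TPM in WT LPS against 209 and 248 in KO LPS (-1.18, SE 0.17, limma adjusted p = 0.00179), and passed in all 15 settings. Scarb1, another scavenger receptor gene, was at 65.0 and 75.6 TPM in WT LPS against 37.4 and 30.8 in KO LPS (-1.03, SE 0.17, limma adjusted p = 0.00512). Cd33, an inhibitory lectin gene, was at 70.5 and 79.6 TPM in WT LPS against 130 and 168 in KO LPS (0.97, SE 0.18, limma adjusted p = 0.00743). The Scarb1 call did not hold with WT LPS replicate 2 left out (-0.92, adjusted p = 0.0589), nor the Cd33 call without KO LPS replicate 2 (0.79) or WT LPS replicate 1 (0.89). Tlr4, the LPS and calprotectin receptor gene, was at 56.9 to 91.7 TPM in M0, and at 37.6 and 50.6 TPM in WT LPS against 28.6 and 39.7 in KO LPS.

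Among 19 tested genes of IL-6 and interferon signalling, 2 were higher and none lower in KO LPS than in WT LPS. The shares over all genes were 4.59% higher and 2.58% lower. Il6 was at 0.624 to 0.793 TPM in M0, 137 and 70.6 for WT LPS and 617 and 718 for KO LPS (2.74, SE 0.27, limma adjusted p = 0.00021), and passed in all 15 settings. Tyk2, a Janus kinase gene, was at 50.7 and 39.1 TPM in WT LPS against 86.5 and 89.3 in KO LPS (0.97, SE 0.18, limma adjusted p = 0.00778), a call lost without KO LPS replicate 2 (0.94, adjusted p = 0.0558) or WT LPS replicate 2 (0.78, adjusted p = 0.0912). Stat2, which carries interferon signals, rose with LPS by 3.20 (SE 0.19, limma adjusted p = 5.62e-07) in wild type, and did not pass between the genotypes after LPS. With LPS 7 of the 19 rose and 4 fell in wild type, and 10 rose and 3 fell in the knockout. The shares over all genes were 15.0% higher and 29.6% lower in wild type, and 13.8% and 24.3% in the knockout. Il6, under 1 TPM in M0, passed the filter on low values only through its LPS values, so its rise was built in.

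Of 19 tested transcription factor genes of myeloid cells and the acute phase, 3 were higher and 1 lower in KO LPS than in WT LPS. Over all genes, 4.59% were called higher and 2.58% lower there. Cebpa, which drives granulocyte and monocyte differentiation, was at 82.8 to 102 TPM in M0, 47.3 and 45.7 for WT LPS and 20.3 and 12.0 for KO LPS (-1.51, SE 0.23, limma adjusted p = 0.00277). Cebpd, an acute-phase activator, was at 165 and 132 TPM in WT LPS against 261 and 251 in KO LPS (0.79, SE 0.16, limma adjusted p = 0.0155). Gfi1, a repressor of myeloid genes, was at 9.45 and 10.5 TPM in WT LPS against 30.9 and 19.4 in KO LPS (1.22, SE 0.24, limma adjusted p = 0.0133). Nfkb1, an NF-kappaB subunit gene, was at 254 and 229 TPM in WT LPS against 357 and 361 in KO LPS (0.57, SE 0.15, limma adjusted p = 0.0450). Cebpa passed in 14 of 15 settings, Cebpd and Gfi1 in 10 each and Nfkb1 in 4. The group's count of higher genes fell from 3 to 0 without KO LPS replicate 1, and to 1 without KO LPS replicate 2 or WT LPS replicate 2. With LPS 7 rose and 6 fell in wild type, and 6 rose and 4 fell in the knockout, and quantile scaling gave 7 and 7, and 6 and 5. Of all genes, 15.0% were called higher and 29.6% lower with LPS in wild type, and 13.8% and 24.3% in the knockout. Gfi1, at 0 to 0.0579 TPM in M0, passed the filter on low values only through its LPS values, so its rise was built in.

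S100a8, Ly6c2 and Lcn2 are also markers of neutrophils and monocytes, so markers of those cells are given beside them. Of 23 neutrophil and precursor markers other than the members, Lcn2 included, 8 were at 0 in all libraries, among them Cxcr2, Fcnb and Retnlg. Elane, Mpo, Ltf and Ngp did not exceed 0.208 TPM. The list's sum was 119 to 128 TPM in WT M0, 133 in KO M0, 836 to 931 in WT LPS and 1853 to 2125 in KO LPS, with Lcn2 its most abundant gene under LPS. Camp, Mmp8, Csf3r and Padi4 were tested too, and none of them passed between KO LPS and WT LPS. Camp was at 12 and 11 TPM in WT LPS against 9.16 and 9.14 in KO LPS, and Mmp8 at 79.9 and 80.4 against 49.4 and 56.7. Of 11 tested monocyte markers 1 was higher in KO LPS, Itgal, an integrin gene (0.56, SE 0.15, limma adjusted p = 0.0486), which passed in 2 of 15 settings and in none of those that left out an LPS library. Their sum was 248 to 355 TPM in WT M0, 303 in KO M0, 862 to 998 in WT LPS and 1086 to 1301 in KO LPS. Vcan and Ms4a4c, monocyte genes, rose with LPS in wild type by 4.30 (SE 0.19, limma adjusted p = 8.92e-08) and 4.89 (SE 0.22, adjusted p = 9.77e-08), while Ccr2 fell by 2.47 (SE 0.26, adjusted p = 2.84e-05). The part of other cells in the members' levels was not tested beyond these values.

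Endothelial markers summed to 50.6 to 51.0 TPM in KO LPS against 15.9 to 20.8 in the other groups, most of it Kdr, the VEGF receptor 2 gene, at 37.9 and 38.9 TPM. Of the 3 endothelial markers tested, 2 were higher in KO LPS than in WT LPS, where 4.59% of all genes were called higher. That count includes Pecam1, for which a higher value in KO LPS was built in. Kdr differed by 1.89 (SE 0.24, limma adjusted p = 0.00088) and passed in all 15 settings. Pecam1, which encodes CD31 and is also found on leukocytes, was at 0.585 and 0.333 TPM in WT LPS against 2.12 and 2.30 in KO LPS (1.14, SE 0.22). It was at 0.676 to 0.846 TPM in M0, so it passed the filter on low values only through its KO LPS values. Nothing is read from its call, which did not hold with WT LPS replicate 2 left out. Without either KO LPS library Pecam1 was under that filter. Cldn5, a tight junction gene of endothelium, was at 0 throughout. Stem and progenitor markers, a group to which Ly6a (Sca-1) is close, summed to 20.1 to 25.1 TPM in M0, 204 to 243 in WT LPS and 125 to 176 in KO LPS, mostly Procr. Of its 2 tested genes, Procr and Slamf1, both rose with LPS in both genotypes and neither passed between them. Slamf1, at 0.081 to 0.104 TPM in M0, passed the filter on low values only through its LPS values, so its rise was built in. Lymphocyte markers summed to 1.88 to 3.46 TPM in the LPS libraries and fibroblast and adipocyte markers to 21.4 to 30.2. Of the 4 fibroblast and adipocyte markers tested, 2 collagen genes were higher in KO LPS than in WT LPS, both listed at 0 in both WT LPS libraries. Col1a1 was at 1.18 and 1.56 TPM in KO LPS (limma adjusted p = 0.00920), a call lost without KO LPS replicate 2 (adjusted p = 0.0775), and Col1a2 at 0.692 and 0.831 (adjusted p = 0.0490), which passed in 4 of 13 settings and in none of those that left out 1 library. The part of these cell types in the members' levels was not tested.

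For each gene, up to 3 genes with the most similar pattern were found by Pearson's r of log2(TPM + 1) over the 7 libraries among 5192 genes that spanned at least 1 log2 unit. The libraries fall into M0 and LPS clusters, so r mainly reflects that shared step. Ly6a was closest to Lpcat2 (0.999), Jak2 and Cp, and Ly6c1 to Tmem178 (0.994), Abcc5 and Mthfd2. Ly6c2 was closest to Slamf6 (0.997), Bst1 and Mfap3l, and S100a8 to Epha4 (0.997), Rdh11 and Msr1. Ly6e was closest to Dock11 (0.991), Ccdc126 and Acer3, and Ly6i to Fpr1 (1.00), Ptpre and Hp. Saa3 was closest to Mfsd7a (0.998), Psme2 and Mocs1, and Wfdc21 to Gphn (0.998) and Shisa3.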

How the data were processed

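The authors deposited 1 table of TPM per library (7 libraries, 23337 gene names each, summing to 1000000). Reads had been placed on mm10 (per the submitters' processing notes); which aligner, quantifier and annotation served is not given in the sources used here. Groups and replicate numbers came from the library titles. Genes with a mean of at least 1 TPM (11096) were tested with limma 3.58.1 in R 4.3.3 on log2(TPM + 1) with 1 mean per group over all 7 libraries, moderated variance (3 residual degrees of freedom) and Benjamini-Hochberg adjustment over all genes (threshold 0.05); the code was tested on simulated data. Alternatives were scaling, pseudocount, filter, threshold, libraries fitted and a replicate block. The members and gene lists were chosen with earlier results of these data known, so counts over them support nothing. Alternatives for the lists were chosen after seeing the data. Named genes were the members, Tgm2, up to 4 listed genes per comparison with the smallest p among those past the threshold, the most abundant genes of lists of other cell types, and the 3 genes most like each member; some of these are not reported here. Older symbols, such as 1100001G20Rik for Wfdc21, were matched through the reference table. Same-numbered libraries of different groups had deviations correlated at 0.18, 0.30 and 0.08, not all above 0.1, so the numbers were not treated as pairs.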

Additional observations from a re-analysis of the deposited data

Results flagged for a closer look

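Of the listed genes described here, 5 had a change with LPS that differed between the genotypes by limma's test of that difference (adjusted over all genes tested), each value being the log2 change in KO minus that in WT. Lcn2 rose by 7.86 in WT and 9.64 in KO, a difference of 1.77 (SE 0.28, adjusted p = 0.0165). Ptx3 rose by 4.73 and 6.32, a difference of 1.59 (SE 0.29, adjusted p = 0.0280). Il6 rose by 5.87 and 8.55, a difference of 2.68 (SE 0.43, adjusted p = 0.0167). Cd36 changed by 0.01 in WT and -1.25 in KO, a difference of -1.26 (SE 0.26, adjusted p = 0.0483). For Col1a1, listed at 0 in both WT LPS libraries, the difference on the log2(TPM + 1) scale was 1.79 (SE 0.37, adjusted p = 0.0460). All 5 calls were lost without WT M0 replicate 1, with adjusted p of 0.0853 for Lcn2, 0.101 for Ptx3 and Col1a1, 0.106 for Il6 and 0.174 for Cd36, and the sign stayed. Of 12 alternative settings, Lcn2 passed in 8, Il6 in 6, Ptx3 in 5, Col1a1 in 3 and Cd36 in none. All 5 were also lost without KO LPS replicate 2, with no filter on low values and at an adjusted p of 0.01. Ptx3, Il6, Cd36 and Col1a1 were lost without WT M0 replicate 2, Ptx3, Cd36 and Col1a1 without KO LPS replicate 1 or WT LPS replicate 2, and Cd36 and Col1a1 without WT LPS replicate 1 or with a mean of at least 5 TPM. Median-ratio scaling lost Il6 and Cd36, and quantile scaling or a pseudocount of 0.1 lost Cd36. Both WT LPS libraries carry Xist, which differed in the same test (-5.70, adjusted p = 8.24e-05), so these differences cannot be told apart from what else sets those libraries apart.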

How the results depend on the processing

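Against 3 members and 795 genes past the threshold between KO LPS and WT LPS, a pseudocount of 0.1 gave 1 member (S100a8), no filter on low values gave 0 members and 307 genes, an adjusted p of 0.01 gave 1 member (Ly6c2) and 362 genes, and leaving out 1 library gave 1 to 3 members and 385 to 804 genes (the lowest without KO LPS replicate 2; also 506 without KO LPS replicate 1, and 428 with WT LPS replicate 2 left out). Without LPS, against 1 gene, a pseudocount of 0.1 gave 2, no filter 20, the M0 libraries alone 40, and leaving out 1 library 1 to 6 (6 without WT M0 replicate 2). For the difference of LPS changes, against 152 genes, a pseudocount of 0.1 gave 92, no filter 10, an adjusted p of 0.01 gave 28, and leaving out 1 library 16 to 139 genes (16 without WT M0 replicate 1, 93 without WT M0 replicate 2, 72 and 64 without KO LPS replicates 1 and 2) and 0 to 1 members. For KO LPS against KO M0, an adjusted p of 0.01 gave 2681 genes against 4233. The causes were not tested, apart from fewer libraries or a stricter threshold.

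Of 488 recomputed member fold changes, 417 moved by less than 1 SD, 71 by more, and 0 called values changed sign. With a replicate block, which leaves out KO M0 because its title has no number, 3 members and 1115 genes passed between KO LPS and WT LPS, and 8 members and 5632 genes between WT LPS and WT M0 (4949 without it); it changed no member's call. Median-ratio scaling moved the median gene by about the LPS shift given above: in wild type 2485 genes were higher and 2288 lower with LPS (1665 and 3284 as deposited; 2250 and 2536 with quantile scaling), 2110 and 1849 in the knockout (1533 and 2700; 1835 and 2163), and with quantile scaling 386 and 332 differed between KO LPS and WT LPS (509 and 286). Depth is unknown, so no limit for values at 0 can be given.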
